A study of Gallus gallus with 18 samples.

Results

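Expression of 9 sex determination and sex hormone genes was examined in the primitive streak of chicken embryos, at a stage when no gonad exists. The genes were chosen by name: NR5A1, SOX9, AMH, CYP19A1, CYP17A1, ESR1, PGR, STAR and FEM1C. All probesets that the annotation of the array assigned to 1 of them were taken, which gave 14 probesets of the 38439 that are not controls, and 9 genes of the 13009 that a probeset reads alone. The samples were 9 male and 9 female White Leghorn embryos at day 1, Hamburger and Hamilton stage 4 (HH4), each on an Affymetrix chicken array of its own. The embryos had been kept for a time in EC culture, a culture of the whole embryo outside the egg, and a small square at one level of the primitive streak, with the epiblast beside it and all germ layers, was cut from each. Some embryos had been electroporated with plasmids, and the labels do not say which. Males carry 2 Z chromosomes, females carry 1 Z and 1 W, and there was no treatment group. The sex of each embryo had been read by the authors from HINTW, a W-linked gene, on these same arrays. Its brighter probeset had a signal of 25605 to 32838 in females and 5.08 to 75.1 in males.

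In birds the gonad arises later from the intermediate mesoderm and first has the same form in both sexes. NR5A1 is a nuclear receptor of gonad and adrenal cells that switches on steroid enzymes, SOX9 drives the testis program, and AMH is the hormone that makes the Müllerian ducts regress. STAR carries cholesterol into mitochondria, CYP17A1 makes androgen precursors, and CYP19A1, the aromatase, turns androgens into estrogens, the step that directs the avian ovary. ESR1 and PGR are the receptors for estrogen and progesterone. FEM1C is named after fem-1 of Caenorhabditis elegans, which acts in sex determination there. In vertebrates FEM1 proteins recognise substrates for a CUL2 ubiquitin ligase, and a role of FEM1C in bird sex determination is not part of this background.

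The values are MAS5 signals, a linear measure without units that the authors scaled array by array. One signal was taken as the detection level for all probesets, and 0.5 times this level is 64.5. It was set so that about as many probesets passed as in the authors' own filter on Present calls. A gene was counted as detected where a probeset reached the level in at least 9 of the 18 embryos. Of all probesets 37.8% did so, and 13804 to 15263 probesets reached the level in each embryo. Each probeset has a brightness of its own, so levels say nothing of how genes rank, and where the probesets with the highest signal of a list are named below, the signal served only to choose them. A dim signal on this array does not show that no transcript was made.

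Only 2 of the 9 genes were detected at HH4, FEM1C and AMH (22.2%), whereas 60.3% of all genes on the array were. Of the 14 probesets 3 passed the filter, 2 of FEM1C and 1 of AMH. NR5A1 and CYP17A1 reached the level in 5 and 3 embryos, and the remaining 9 probesets reached it in no embryo. At 0.5 times the level, NR5A1 and CYP17A1 were counted as well, in 16 and 12 embryos. The plot of all 14 probesets shows these 3 tiers.

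**Figure D1:**
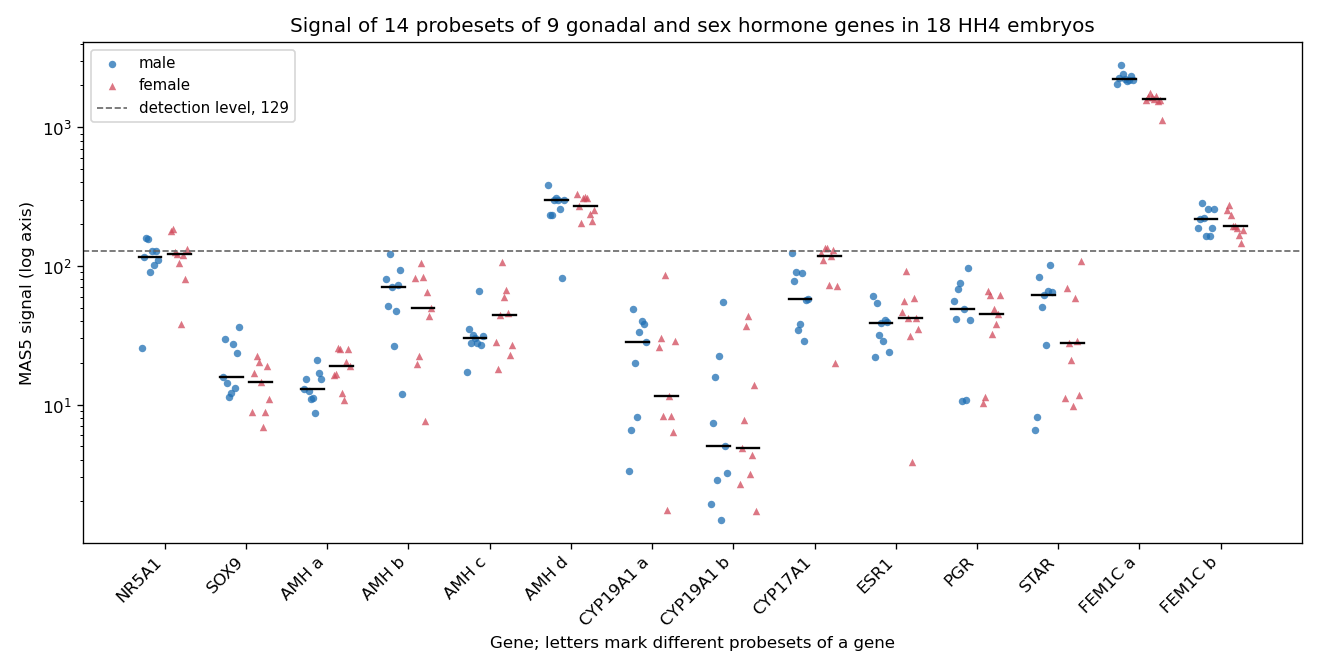
MAS5 signal on a log axis for each of the 14 probesets, with 1 point for each embryo (9 males as circles, 9 females as triangles), black lines at the median of each sex and a dashed line at the detection level. Both FEM1C probesets lie above the line in all 18 embryos and the fourth AMH probeset in 17, NR5A1 and CYP17A1 straddle or approach it, and the other 9 lie below it in every embryo.

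Of the 3 member probesets tested, the brighter of FEM1C was the one called between the sexes. This probeset (a in the plot) had a lowest, median and highest signal of 2059, 2220 and 2803 in males. In females these values were 1128, 1586 and 1766. Every male was above every female, so the sexes did not overlap. The share of all probesets without such overlap is not given, here or for the genes below. The separation therefore describes the values only and is not read as particular to these genes. The mean of the brighter FEM1C probeset was 2288 ± 217 (SD, n = 9) in males and 1571 ± 179 in females. The M:F ratio came to 1.46. On the log2 scale the difference was 0.55 (SE 0.08, 95% interval 0.37 to 0.72), with an adjusted p of 3.0e-04 in limma. The exact permutation test gave a 2-sided p of 4.11e-05, the smallest that 9 embryos against 9 can give. FEM1C is thus 1 member probeset called of 3 tested, and it was male-higher. Over all 14651 tested probesets 2.55% were male-higher and 0.28% female-higher, 2.83% in either direction.

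The second FEM1C probeset (b in the plot) was dimmer and did not pass the test. Its lowest, median and highest signals were 163, 220 and 285 in males and 146, 193 and 275 in females. All 18 embryos were above the detection level, and the sexes overlapped almost completely. The means were 216 ± 43.9 and 203 ± 41.8, with an M:F ratio of 1.06 and a log2 difference of 0.09 (SE 0.14, adjusted p = 0.93 in limma). Its 95% interval ran from -0.20 to 0.37. The log2 signal of the brighter probeset less that of the dimmer one was 3.43 ± 0.26 in males and 2.97 ± 0.29 in females, a difference of 0.46 (exact permutation p = 0.00337). The 2 probesets of this gene therefore gave different sex ratios, by a test of that difference.

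FEM1C lies on the Z chromosome, while the other 8 genes are autosomal. Male-higher calls are common on Z: 51% of the 584 tested probesets of genes placed there were male-higher, against 0.0633% of 11051 autosomal ones. Of the autosomal ones 0.118% were female-higher, and 0.181% were called in either direction. The M:F ratios of Z-linked probesets had a median of 1.48, with quartiles of 1.25 and 1.69. The brighter FEM1C probeset, at 1.46, lay above 47.3% of them, and the dimmer, at 1.06, above 7.36%. The mean log2 signal of the other 582 Z-linked probesets was 9.42 ± 0.03 in males and 8.88 ± 0.04 in females, a difference of 0.55. When this mean was subtracted within each embryo, the brighter FEM1C probeset stood at 1.73 ± 0.13 in males and 1.73 ± 0.16 in females, with an exact permutation p of 0.987. The dimmer one stood at -1.70 ± 0.30 in males and -1.24 ± 0.28 in females (exact p = 0.0051), so that relative to the rest of Z it was lower in males. This p is unadjusted, and the probeset was dim, with mean signals of 216 in males and 203 in females. The call of the brighter FEM1C probeset was of the kind that 51% of the Z-linked probesets gave. The authors placed FEM1C among their compensated Z genes, those with M:F ratios in a range around equality. That range includes 1.06, the ratio of the dimmer probeset, but not 1.46. The ratio of 1.46 is also below the cutoff above which the authors called probesets non-compensated, so it falls in neither class.

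The autosomal relatives of FEM1C were not called. FEM1A, on chromosome 28, had 960 ± 104 in males and 882 ± 243 in females (log2 difference 0.17, adjusted p = 0.86). FEM1B, on chromosome 10, had 4584 ± 823 and 4825 ± 546 (-0.08, adjusted p = 0.90). Both are substrate receptors of the same ligase, and the sexes overlapped for both genes. Of the 9 genes of this family and its ligase on the array 8 were detected, among them the RING protein gene RBX1 (7767 ± 1095 and 7338 ± 500, adjusted p = 0.90) and KLHDC3 (2623 ± 431 and 2529 ± 447, adjusted p = 0.96), another substrate receptor. Of its 13 tested probesets 1 was male-higher, that of FEM1C, and none was female-higher, where 2.55% of all tested probesets and 51% of those on Z were male-higher. The median log2 difference of the 11 that are not on Z was -0.01, the same as over all tested probesets.

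**Figure D2:**
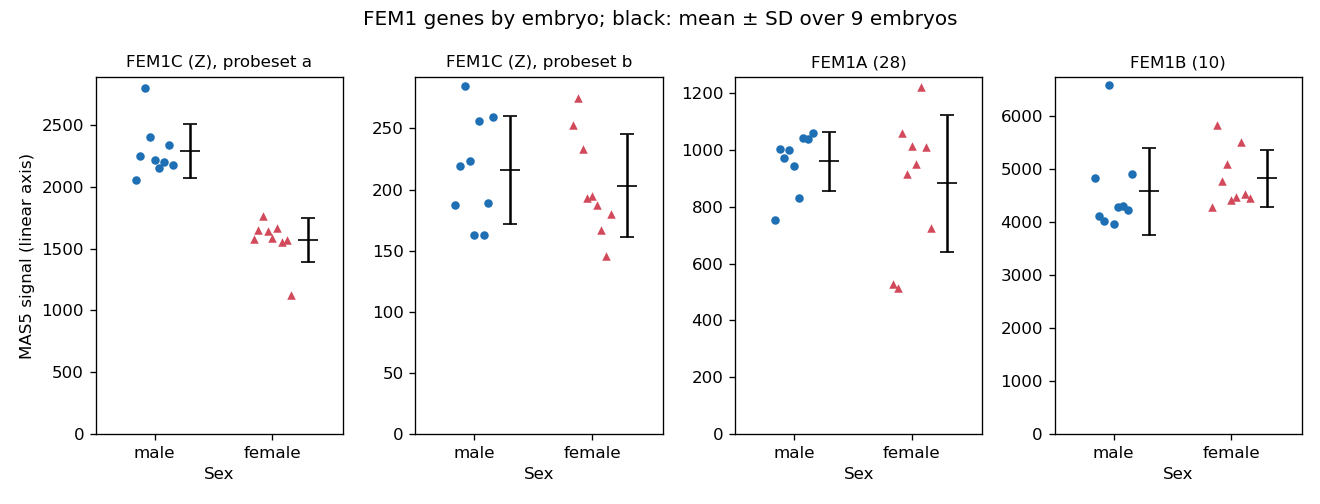
MAS5 signal of 4 probesets on linear axes that start at 0, with 1 point for each embryo by sex and the mean ± SD over 9 embryos in black; chromosomes are given in brackets. The 9 males lie above the 9 females only for the brighter FEM1C probeset, with means of 2288 and 1571, and FEM1A, FEM1B and the dimmer FEM1C probeset overlap.

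AMH was detected through 1 of its 4 probesets. This one (d in the plot) had a lowest, median and highest signal of 82.4, 300.1 and 386 in males and 203, 272 and 329 in females. It reached the level in 17 of 18 embryos, and the exception was male 8. The means were 267 ± 83.7 and 269.8 ± 47.2, with a log2 difference of -0.09 (SE 0.22, 95% interval -0.55 to 0.36, adjusted p = 0.96 in limma). Without male 8 the difference was 0.11 (adjusted p = 0.88), so even its sign rests on 1 embryo.

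The other 3 AMH probesets did not reach the level in any embryo. Probeset a ranged from 8.68 to 21.1 in males and from 10.8 to 25.5 in females. Probeset b ranged from 11.9 to 121 and from 7.60 to 104, and probeset c from 17.3 to 66.2 and from 18.1 to 107. Detection of AMH thus rests on a single probeset. In the GRCg7b gene table AMH overlaps the uncharacterised gene LOC121107741 and is followed directly by SF3A2, a splicing factor gene. Which transcript each probeset reads beyond its annotation was not tested.

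Among the genes that were not counted as detected, NR5A1 reached the level in the most embryos. Its lowest, median and highest signals were 25.6, 116 and 159.7 in males and 37.9, 122 and 184 in females. Males 3 and 4 and females 1, 2 and 9 were at the level or above. The sexes overlapped, with means of 113 ± 40.1 and 120.2 ± 44.8. For comparison, the dimmer HINTW probeset was at the level or above in 1 of 9 males, at 163, although males have no W chromosome. Its brighter probeset was at the level in no male. Over the 39 probesets of 17 genes placed on W, 13.1% of the values in males were at the level or above, with a median of 25.8. The values were uneven, with a 90th percentile of 517, and 5 of the 39 probesets were at the level in most males. The 13.1% is therefore not a rate for each W-linked probeset, and which transcripts those 5 read was not tested.

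CYP17A1 reached the level in 3 females, females 3, 4 and 7, and in no male. Its lowest, median and highest signals were 28.6, 57.2 and 124 in males and 19.8, 118 and 135 in females. Female 8 was below every male, and the 3 highest females were only just above the highest male. The means were 66.3 ± 31.7 and 102 ± 39.1, and the difference did not pass the exact permutation test (p = 0.140). None of these 3 embryos was among those at the level for NR5A1.

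The genes of the remaining steps were dim in every embryo. STAR had signals of 6.56 to 101 in males (median 61.3) and 9.73 to 108 in females (median 27.9). The 2 CYP19A1 probesets had 3.29 to 48.9 and 1.47 to 55.2 in males, and 1.73 to 85.4 and 1.70 to 43.4 in females. ESR1 had 21.9 to 60.3 in males and 3.87 to 92.1 in females, and PGR had 10.6 to 96.7 and 10.3 to 65.8. SOX9 had 11.3 to 36.4 in males and 6.87 to 22.2 in females. No fold is given for these genes because both sexes lie below the detection level. When all probesets were tested without a filter, none of the 11 dim probesets was called, and the smallest adjusted p was 0.76 in limma. By the exact permutation test 1 of them had an unadjusted p under 0.05, AMH probeset a (p = 0.0444), with means of 13.9 ± 3.73 in males and 19.0 ± 5.55 in females, far below the level in both. The 95% intervals of the 11 log2 differences together ran from -1.78 to 1.86.

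The pathways around these genes were then counted in 6 lists, beside the FEM1 family. Genes of the early gonadal ridge were nearly all below the level: 1 of 9 on the array was detected, LHX1, a transcription factor of intermediate and early axial mesoderm, at 253 ± 224 in males and 231 ± 148 in females. NR5A2, the closest relative of NR5A1, reached the level in 4 embryos by the brighter of its 2 probesets. That probeset was at 766 in male 8 and 516 in female 9 and at most 191 in every other embryo. The dimmer NR5A2 probeset was at most 72.8 in any embryo, with 46.3 in male 8 and 17.4 in female 9. The testis list had 9 of 18 genes detected and the ovary list 7 of 13. The named members with the highest signal were the FGF receptor genes FGFR2 (3408 ± 625 and 3360 ± 641) and FGFR3 (2569 ± 933 and 2549 ± 563), MAP3K4, a kinase needed for Sry expression in the mouse (1653 ± 403 and 1709 ± 273), and, in the ovary list, of WNT signalling, CTNNB1 (24345 ± 2350 and 23976 ± 1769) and AXIN2 (6122 ± 1181 and 7009 ± 955). No probeset of the early gonad, testis or ovary list was called in limma, of 1, 15 and 11 tested. The adjusted p was 0.68 to 0.99 for the tested genes just named. Over all tested probesets 2.83% were called in either direction. On Z, where 51.2% were called, the testis list had 4 tested probesets and the ovary list 2. The unadjusted p in limma was under 0.05 for 3 probesets of these lists. They were 1 of DMRT1 (adjusted p = 0.53) and 2 of FST (adjusted p = 0.31 and 0.47), both genes on Z.

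SOX8, which like SOX10 is a close relative of SOX9, was detected in 14 embryos, at 210.5 ± 107 in males and 255 ± 149 in females. It was at 14.7 in male 8 and 17.9 in female 9, the 2 embryos in which the brighter NR5A2 probeset was high. Summed signals of 6 endoderm markers were 33812 and 32372 in these 2 embryos, against 10018 to 22156 in the 14 embryos that did not stand apart on the first principal component. Sums of 6 node and notochord markers were 8395 and 8138, against 1080 to 6241, and node markers SHH and GSC were below the level. Sums of neural and epiblast markers were 7134 and 6999, against 3479 to 6859. Only 3 of the 5 genes of that list on the array were detected, and SOX2 and SOX1 were below the level. Some other sums were low in these embryos, with 59169 and 42666 against 62693 to 87057 for the streak and nascent mesoderm, and 671 and 602 against 778 to 2531 for blood and endothelium. Of the 8 blood and endothelium genes on the array 4 were detected, and HBZ, CDH5, PECAM1 and RUNX1 were below the level. Males 5 and 6 also stood apart on that component, with endoderm sums of 23495 and 18966. Their NR5A2 was at 108 and 65.2 by the brighter probeset, and their SOX8 at 130.3 and 125. The endoderm list and the node list share FOXA2, so their sums are not separate measures. A sum of signals can be carried by its brightest probesets. Signals of single markers are not given, so a high sum does not show that each marker was high. The part of the marked cell types in the NR5A2 and SOX8 signals was not tested. DMRT1, the Z-linked gene needed for testis formation in the chicken, had 525 ± 170 in males and 402 ± 107 in females by its 1 detected probeset of 7 (log2 difference 0.37, adjusted p = 0.53).

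**Figure D3:**
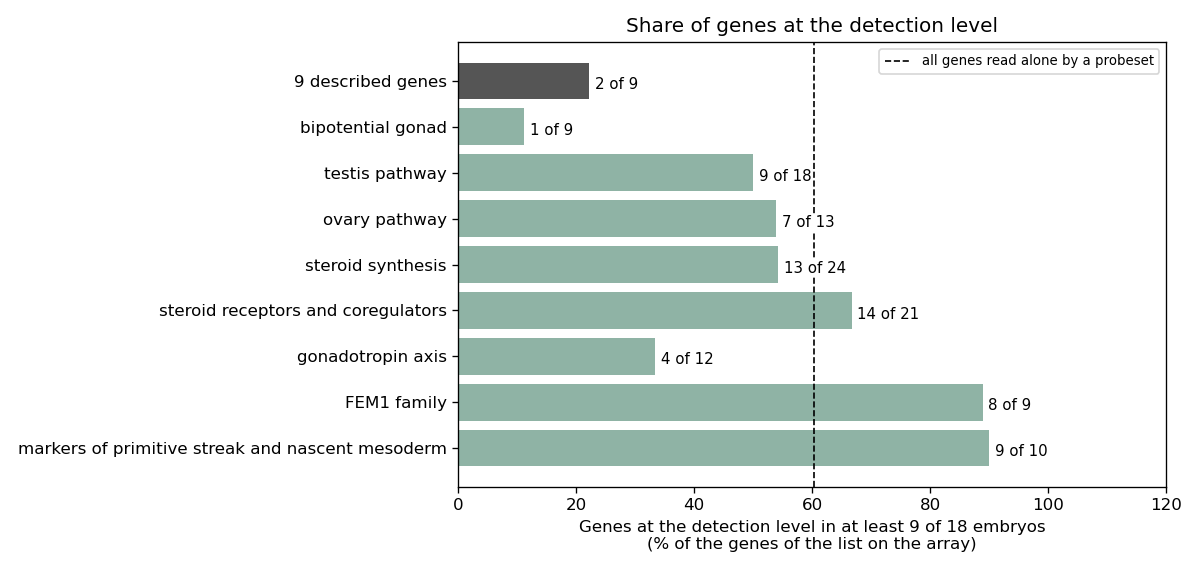
Bars give the percentage of the genes of each list on the array with a probeset at or above the detection level in at least 9 of 18 embryos, with the counts beside them; lists overlap and some contain members of the 9. The dashed line marks all genes, at 60.3%. The 9 genes (2 of 9) and the early gonad list (1 of 9) lie far to the left, and primitive streak markers (9 of 10) to the right.

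In the steroid synthesis list 13 of 24 genes were detected, and 11 were not. STAR, CYP11A1, which makes pregnenolone, HSD3B1, CYP17A1, HSD17B1, HSD17B3 and CYP19A1 were among those below the level. The detected genes with the highest signal were TSPO, a cholesterol-binding protein of the outer mitochondrial membrane (3188 ± 486 in males and 3108 ± 236 in females), FDX1, which passes electrons to mitochondrial P450 enzymes (2873 ± 432 and 2979 ± 283), and AKR1D1, a steroid reductase (2868 ± 486 and 2752 ± 581). None of these 3 was called (adjusted p from 0.93 to 0.98).

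Of the 16 tested probesets of the list 2 were male-higher and none was female-higher, and both that were called are on Z. Of the list's 3 probesets on Z, 2 were thus called, where 51% of all Z-linked probesets and 2.55% of all tested ones were male-higher. HSD17B4, a peroxisomal enzyme that also oxidises estradiol, had 2145 ± 248 in males and 1097 ± 131 in females (M:F ratio 1.95, log2 difference 0.97, SE 0.09, adjusted p = 1.1e-06 in limma), with every male above every female. STARD4, a cholesterol carrier of the STAR family, had 779 ± 175 and 446 ± 128 by its brighter probeset (ratio 1.75, adjusted p = 0.0079), with 7 of 9 males above all females. Its dimmer probeset had a ratio of 2.00 and an adjusted p of 0.060. The third Z-linked probeset of the list is thus also STARD4, and the other 13, of which that of HSD17B10 has no known chromosome, had a median log2 difference of 0.03 with none called. These lists were drawn up with earlier results of these arrays known, so the counts are a description.

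ESR1 and PGR were joined below the level by some other receptors, but not by all. NR3C2, a steroid receptor of the same list, was at the level or above in all 18 embryos. It had 304 ± 66.0 in males and 300.5 ± 73.0 in females (adjusted p = 0.99 in limma). ESR2, the second estrogen receptor, reached the level in 4 embryos (96.0 ± 38.4 in males and 107 ± 30.4 in females), and the brightest probeset of the glucocorticoid receptor NR3C1 reached it in 2. Among 21 genes of receptors and coregulators 14 were detected, and those with the highest signal were the chaperone HSP90AA1 (17645 ± 2516 and 17885 ± 2116), its partner FKBP4 (12873 ± 1116 and 12745 ± 621) and PGRMC1, a membrane protein named for progesterone binding (9557 ± 800 and 9615 ± 683). None of the 3 was called (adjusted p from 0.98 to 0.99).

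One of the 24 tested probesets of this list was male-higher and none was female-higher. Over all tested probesets 2.55% were male-higher, and 51% of those on Z. By the platform annotation it reads NR2C1, an orphan nuclear receptor gene, at 654 ± 58.6 in males and 376 ± 78.0 in females (ratio 1.74, adjusted p = 4.9e-05 in limma), and all males were above all females. The other tested NR2C1 probesets were not called. The brightest had 2456 ± 778 and 2889 ± 506 (ratio 0.850, adjusted p = 0.82). The dimmest ran the same way as the called one, with 125 ± 43.6 and 85.5 ± 30.6 (ratio 1.47, exact permutation p = 0.0339, adjusted p = 0.38 in limma). The chromosome is not settled. The GRCg7b gene table places NR2C1 on chromosome 1, but the authors' text names it among the non-compensated genes on Z. Their list of Z-linked probesets holds the dimmest probeset but not the called one. Their annotation of the called probeset also names AUH, a gene on Z. Which transcript the called probeset reads was not tested.

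**Figure D4:**
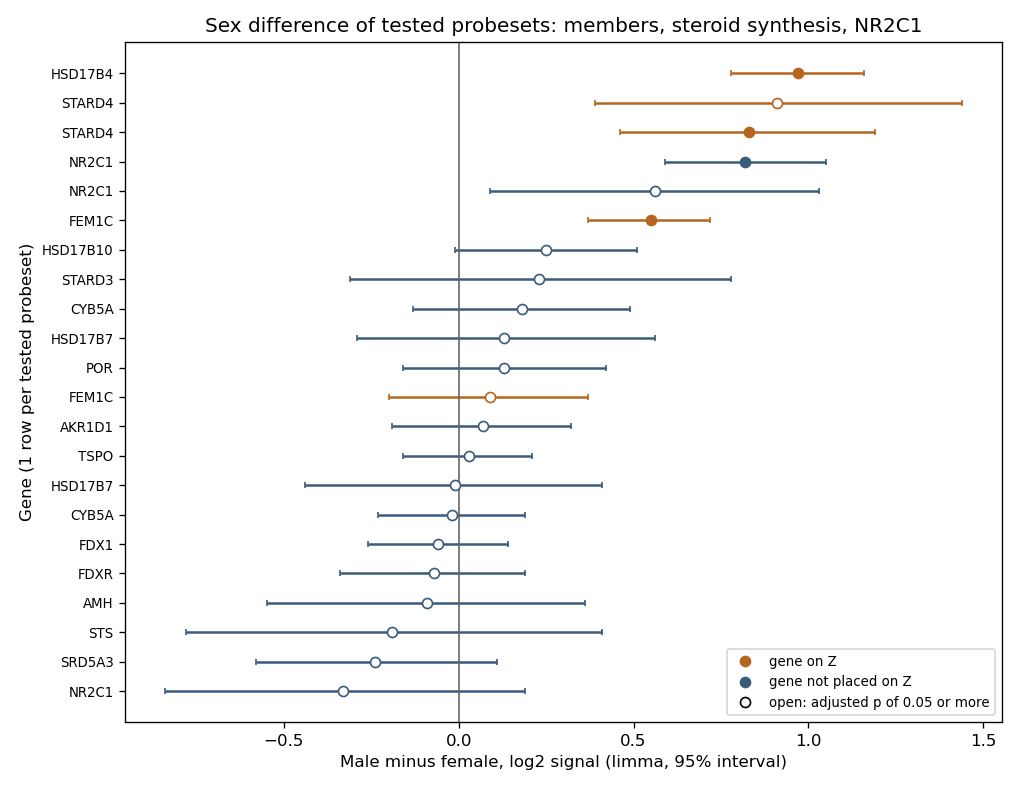
Male minus female log2 signal with its 95% interval from limma for the tested probesets of the 9 genes, of the steroid synthesis list and of NR2C1, 1 row for each probeset. Filled points passed an adjusted p of 0.05. They are HSD17B4 at 0.97, STARD4 at 0.83, NR2C1 at 0.82 and FEM1C at 0.55, while the single AMH probeset lies at -0.09.

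In the gonadotropin list 4 of 12 genes were detected. None of its 5 tested probesets was called in limma, with none at an unadjusted p under 0.05. None of the 5 is placed on Z, and 2.83% of all tested probesets were called in either direction. The activin receptor genes ACVR2B (15560 ± 1716 in males and 15951 ± 1855 in females) and ACVR2A (8876 ± 1327 and 8168 ± 1111) had the highest signals. LHCGR, the receptor for luteinizing hormone, was at the level or above in all 18 embryos (337 ± 71.5 and 311 ± 71.4, adjusted p = 0.91), while FSHR and the pituitary hormone genes FSHB, CGA and PRL were not detected. Of the 3 called probesets in these lists other than that of FEM1C, 2 read Z-linked genes and that of NR2C1 has no settled chromosome.

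The sample labels do not name the tissue, which is known from the authors' description. Streak markers were detected, but so were markers of other cell types, with 6 of 6 for endoderm. Among 10 primitive streak and nascent mesoderm markers on the array 9 were detected, all but MIXL1, with summed signals of 59169 to 87057 in males and 42666 to 78133 in females (exact p = 0.838). Among 9 markers of gonad and adrenal 2 were detected, AMH and FOXL2. The sums of 8 marker lists gave exact p-values from 0.154 to 0.977 between the sexes. A measure of RNA quality, the 3′ signal of GAPDH over its 5′ signal, ranged from 2.19 to 4.06 (exact p = 0.765 between the sexes). Female 9 and males 5, 6 and 8 stood apart on the first principal component. Without these 4 embryos the brighter FEM1C probeset had a log2 difference of 0.50 (adjusted p = 0.0017), the same 2 genes were detected, and the 3 called probesets of HSD17B4, STARD4 and NR2C1 stayed male-higher. In bulk tissue fewer cells of a type and less RNA in each cell cannot be told apart.

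For each detected probeset the genes with the most similar log2 signal over the 18 embryos were listed, among 7887 other genes. For the brighter FEM1C probeset these were SLC44A1 (Pearson r = 0.938), ABHD17B (0.924) and YTHDC2 (0.923), all on Z. The sexes form separate clusters for these genes, and with the mean of each sex removed r was 0.716, 0.686 and 0.690. For the dimmer probeset they were BLOC1S4 (0.801), STARD3NL (0.724) and SGO1 (0.715), all on chromosome 2, and removal of the sex means left 0.801, 0.715 and 0.708. None of the 3 genes nearest to one FEM1C probeset was among the 3 nearest to the other. Genes were ranked before the sex means were removed, and each set holds only 3 of 7887 genes. The lack of shared genes therefore cannot show whether the 2 probesets read different transcripts. For AMH they were YIPF3 (0.855), FAM96A (0.845) and RAD51B (0.843), where male 8 was far below the other embryos for AMH. These values are descriptions over arrays that share their processing, with each set of 3 picked from many genes.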

How the data were processed

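RNA of single embryos was amplified over 2 cycles, labelled and hybridized to Affymetrix chicken arrays, 1 for each of 18 embryos. The deposited intensity values are linear MAS5 signals, which the authors made with the R package affy: background correction, a summary over the probe pairs of a probeset, and scaling of each array, with no pooling of samples. Present calls were not used here, and the number of arrays limits the precision.

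Signals were turned to log2 with no constant and not normalized again. The 96 control probesets were left out. Tested were the 14540 probesets at or above the detection level in at least 9 embryos, plus 111 dimmer probesets of the authors' list of 689 Z-linked ones, 14651 in all. Of these 11746 read 1 gene, 68 several and 2837 none by the platform annotation, and chromosomes came from the GRCg7b gene table through gene identifiers. Sex was tested with limma 3.58.1 in R 4.3.3 over all 18 embryos with Benjamini-Hochberg adjustment over all tested probesets. Exact permutation tests of single values used all 48620 ways to divide 18 embryos into 9 and 9 (Python 3.11.15). All tests were 2-sided. The scripts were checked on made data with known changes.

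The 9 genes, the lists and the marker lists were chosen with earlier results of these data known. Named genes are all probesets of the 9 genes, up to 4 called genes and the 3 brightest of each list, the 3 genes most similar to each detected probeset, and the relatives FEM1A, FEM1B, NR5A2, SOX8, SOX10, ESR2, NR3C1, HINTW and DMRT1. Of these SOX10 was dim. An item withheld here is not reported. Any other gene was picked with its values known. Alternatives were other filters, an added constant of 32, quantile normalization, array weights, a SAM-type test, 1 probeset for each gene, a replicate block and leaving out each embryo. Counts without 4 embryos were added after the data had been seen.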

Additional observations from a re-analysis of the deposited data

Results flagged for a closer look

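In 36 groups of 9 embryos of a sex, for the 14 probesets and for NR5A2, SOX8, FEM1A and FEM1B, the highest or lowest log2 signal was set against the rest by Dixon's test. It found 11 values, from 7 embryos, far from the others of their sex. The test gives about 1 in 20 groups by chance where values are normally distributed and groups are separate. These groups share embryos and many of the signals are dim, so that rate need not hold here. FEM1C was at 1128 in female 9, with the next female at 1557, and at 2803 in male 3, with the next male at 2401. AMH was at 82.4 in male 8, with the next at 231. NR5A1 was at 25.6 in male 1 (next 90.5), CYP17A1 at 19.8 in female 8 (next 71.1) and ESR1 at 3.87 in female 6 (next 31.0), of which only NR5A1 and CYP17A1 reach the detection level in any embryo. The brighter NR5A2 probeset, the only one of that gene tested here, was at 766 in male 8 (next 108) and at 516 in female 9 (next 191). SOX8 was at 14.7 in male 8 (next 125) and at 17.9 in female 9 (next 101). FEM1B was at 6594 in male 4 (next 4908). Of the 11 values 6 belong to male 8 or female 9, among them those of NR5A2 and SOX8 already described. Only NR5A2, SOX8, FEM1A and FEM1B of the relatives were in the groups, so this share depends on that choice.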

How the results depend on the processing

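The count of 1 male-higher and 0 female-higher member probesets held under all 29 alternatives, and the log2 difference of the brighter FEM1C probeset stayed between 0.49 and 0.57 (adjusted p from 1.3e-04 to 0.013). The dimmer FEM1C probeset stayed at 0.03 to 0.14 without a call in the 27 alternatives that contained it, which leave out the stricter filter and that of 1 probeset for each gene. HSD17B4, STARD4 and NR2C1 kept their calls in 29, 29 and 28 alternatives, and the called NR2C1 probeset was not tested with 1 probeset for each gene, with adjusted p of at most 5.3e-04, 0.046 and 0.0021. AMH changed sign to 0.11 without male 8 and to 0.07 without female 9 and males 5, 6 and 8, and lay between -0.17 and 0.11 when each embryo was left out. At 0.5 times the detection level 4 of the 9 genes were detected, and 1 when all 18 embryos had to reach it. Over all probesets the 374 male-higher calls became 227 with 1 probeset for each gene, and the 41 female-higher ones became 17 there and 17 with at least 10 embryos at 2 times the level. Fewer probesets were tested in these cases. The replicate numbers do not pair embryos (correlations of same-numbered deviations from -0.238 to 0.208, 2 of 9 males nearest to their own number), and with the replicate block FEM1C gave 0.55 (adjusted p = 0.0027) and the counts 331 and 35. Replicates are separate embryos, and dim signals limit what could be seen for 7 of the 9 genes.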

Other observations

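A pair of genes of the ovary list, named only briefly above, is given here in more detail, and both were picked after their values were seen. FST, a Z-linked gene for follistatin, which binds activin, had 934 ± 614 in males and 383 ± 179 in females by 1 probeset and 1172 ± 880 and 435 ± 277 by another. The ratios of means were 2.44 and 2.69, the males ranged from 211 to 1816 and from 121 to 2818, and the adjusted p was 0.31 and 0.47 in limma (exact permutation p = 0.0262 and 0.0512). Males and females overlapped for both, and FST was not called.

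FOXL2, a transcription factor of the ovary, was detected in 15 of 18 embryos, at 187 ± 50.7 in males and 182 ± 59.6 in females, with ranges of 103 to 278 and 94.2 to 278. It was not called (adjusted p = 0.98 in limma), and aromatase, a gene that FOXL2 is known to activate in the gonad, was below the level in every embryo.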
